A study of Homo sapiens with 2 samples.

Results

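The genes of the RUNX transcription factors, RUNX1, RUNX2 and RUNX3, were examined with CBFB, which encodes their common partner subunit, and with SUPT3H, whose span overlaps that of RUNX2. These 5 of 20037 protein-coding genes were chosen by name, and each was taken with 200 kb on both sides. The windows of RUNX2 and SUPT3H run into each other, so the 5 genes gave 4 loci. The loci held 122 of the 51556 DNase I hotspots deposited for Saos-2 and 117 of the 63388 deposited for U2OS. A hotspot is a stretch of chromatin that DNase I cut more often than its surroundings, which marks DNA not wrapped in nucleosomes.

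Saos-2 and U2OS are established human cell lines grown from osteosarcoma, a bone tumour whose cells make bone matrix. The labels name the cell line of each sample and no treatment or clone. Each line contributed 1 DNase-seq library, which leaves the spread between replicates unmeasured, allows no test between the lines, and makes every difference one between 2 libraries. The read depth of both libraries is unknown, and exact 95% Clopper-Pearson intervals, given for shares, cover counting error only. Positions are on hg38, and genes follow RefSeq on GRCh38.p14.

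RUNX proteins bind DNA through the runt domain and hold it more tightly when paired with the CBFB subunit, which does not contact DNA itself. RUNX2 is the factor without which no osteoblasts form, RUNX1 is best known from blood stem cells, and RUNX3 from T cells and sensory neurons. All RUNX genes of vertebrates have a distal promoter, called P1, and a proximal promoter, called P2, inside the gene. SUPT3H encodes a subunit of the SAGA coactivator complex and is transcribed in the direction opposite to RUNX2.

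The promoters were examined first. RefSeq promoter windows of 300 bases, from 250 before to 50 after a transcription start, were found for RUNX1 (P2 only), RUNX2 (P1 and P2), RUNX3 (P1 and P2) and SUPT3H (a pair of nearby starts), but not for CBFB. Of these 7 windows, 3 overlapped a hotspot in both lines and 4 in neither line. Over all 22199 windows of protein-coding genes, both lines had a hotspot at 35.5%, Saos-2 alone at 4.18%, U2OS alone at 8.12%, and neither at 52.2%. The 250 upstream bases are printed 5′ to 3′ on the strand of the gene for the windows that separate called from uncalled promoters. Capitals mark the RUNX motif, searched as TGTGGT or TGCGGT on both strands.
RUNX2 P1, chr6:45328080-45328329, plus strand, hotspot in both lines: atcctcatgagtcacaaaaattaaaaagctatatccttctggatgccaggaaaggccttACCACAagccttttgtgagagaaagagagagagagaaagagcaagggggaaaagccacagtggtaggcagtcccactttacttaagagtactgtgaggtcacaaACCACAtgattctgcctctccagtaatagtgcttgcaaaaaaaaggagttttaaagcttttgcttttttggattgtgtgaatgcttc
RUNX2 P2, chr6:45422025-45422274, plus strand, no hotspot in either line: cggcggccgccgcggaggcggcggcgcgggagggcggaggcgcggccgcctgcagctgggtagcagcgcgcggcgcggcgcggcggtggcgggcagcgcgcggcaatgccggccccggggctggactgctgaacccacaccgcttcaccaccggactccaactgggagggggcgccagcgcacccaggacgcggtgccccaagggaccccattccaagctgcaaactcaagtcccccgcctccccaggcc
SUPT3H outer start, chr6:45377935-45378184, minus strand, no hotspot in either line: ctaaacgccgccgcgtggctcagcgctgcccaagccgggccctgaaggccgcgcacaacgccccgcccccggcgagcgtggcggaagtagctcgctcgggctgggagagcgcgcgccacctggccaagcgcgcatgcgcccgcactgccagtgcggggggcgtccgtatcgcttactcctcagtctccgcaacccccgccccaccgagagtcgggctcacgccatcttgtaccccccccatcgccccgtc
RUNX3 P1, chr1:24965011-24965260, minus strand, hotspot in both lines: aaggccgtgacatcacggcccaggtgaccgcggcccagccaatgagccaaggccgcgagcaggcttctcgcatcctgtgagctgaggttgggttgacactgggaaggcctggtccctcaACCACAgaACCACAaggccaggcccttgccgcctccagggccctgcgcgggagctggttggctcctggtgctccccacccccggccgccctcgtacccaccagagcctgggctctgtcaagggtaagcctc
RUNX3 P2, chr1:24930277-24930526, minus strand, no hotspot in either line: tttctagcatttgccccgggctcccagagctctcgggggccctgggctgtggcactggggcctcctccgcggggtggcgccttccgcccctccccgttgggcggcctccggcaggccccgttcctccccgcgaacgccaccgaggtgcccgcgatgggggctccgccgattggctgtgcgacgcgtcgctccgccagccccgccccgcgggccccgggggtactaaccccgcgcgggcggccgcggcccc
RUNX1 P2, chr21:34888700-34888949, minus strand, hotspot in both lines: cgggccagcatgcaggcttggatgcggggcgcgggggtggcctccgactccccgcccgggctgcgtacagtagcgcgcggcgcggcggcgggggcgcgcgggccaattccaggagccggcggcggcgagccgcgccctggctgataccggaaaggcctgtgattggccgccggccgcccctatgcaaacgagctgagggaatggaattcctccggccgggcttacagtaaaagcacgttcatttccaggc

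The RUNX2 P1 window stands out from the others by its bases. Its GC content was 42.7%, against 66.3% to 76.0% in the other 6 windows. It held 5 RUNX motifs, 2 in the bases printed and 3 in the 50 bases after the start. At least 5 RUNX motifs were found in 4 of the 35116 windows of all RefSeq genes (0.0114%), and at least 1 in 19.6%. The RUNX3 P1 window held 2 RUNX motifs, both in capitals above and 2 bases apart, and at least 2 were found in 2.32% of all windows. The RUNX2 P2, RUNX3 P2, RUNX1 P2 and outer SUPT3H windows held none, and the inner SUPT3H window held 1. An AP-1 motif (TGANTCA, both strands) occurred in the RUNX2 P1 window and in none of the other 6, against 7.71% of all windows. The GC box (GGGCGG, both strands), present in 45.0% of all windows, occurred in each of the 7 windows except RUNX2 P1, and a TATA box (TATAAA, both strands) in none. These matches describe letters in a window and not bound sites.

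At RUNX2 P1 the libraries differed widely in strength although both had a call. The Saos-2 hotspot, chr6:45327968-45328460, covered all 300 bases of the window and had a −log10 significance of 12.5. This is the authors' own value for each hotspot, unlabelled in the lists and taken here as −log10 significance. The U2OS hotspot, chr6:45328072-45328189, covered 110 bases and had a −log10 significance of 1.59. The Saos-2 hotspot thus lay at percentile 88.4 of its list and the U2OS hotspot at percentile 3.2 of its own, close to the lowest −log10 value of 1.30 found in either list. All 5 RUNX motifs lay inside the Saos-2 hotspot and 1 inside the U2OS hotspot. The call of a shared site here depends on the definition. When the overlap had to span 50% of each hotspot, the P1 hotspots of RUNX2 no longer counted as shared, nor did those of RUNX3. When the U2OS list was cut to its most significant hotspots, as many as Saos-2 had, the U2OS hotspot at RUNX2 P1 dropped out and that of Saos-2 remained.

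The proximal RUNX2 promoter had no hotspot in either line. The nearest hotspots lay 16548 bp away in Saos-2 and 16809 bp away in U2OS, both inside RUNX2. Neither start of SUPT3H, which lie between P1 and P2 of RUNX2, had a hotspot within 2.5 kb in either line. From the window of the outer SUPT3H start the nearest Saos-2 hotspot, at chr6:45387288-45387482, lay at a distance of 9104 bp. In U2OS the nearest was the weak hotspot at RUNX2 P1 itself, at 49696 bp.

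The other promoters differed less between the libraries. At RUNX1 P2 the −log10 significance was 3.85 in Saos-2 and 5.29 in U2OS, and at the upper end of the gene, which is P1, it was 3.51 in Saos-2 and 3.53 in U2OS. RUNX3 P1 had 1 Saos-2 hotspot of 4.32 and a pair of U2OS hotspots, the higher of 4.35, while RUNX3 P2 had no hotspot, the nearest being 15075 bp away (Saos-2) and 18779 bp away (U2OS). CBFB had a hotspot at its lower end in both lines, where the −log10 significance was 4.20 for Saos-2 and 7.17 for U2OS. Of the 10 ends of the 5 genes, 4 had a hotspot within 1 kb in each line: the lower ends of RUNX2 and CBFB and the upper ends of RUNX1 and RUNX3. SUPT3H was the only one of the 5 genes with no hotspot at an end, whereas 47.8% of all protein-coding genes had one at an end in Saos-2 and 53.2% in U2OS. These end counts were the same within 2.5 kb.

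**Figure D1:**
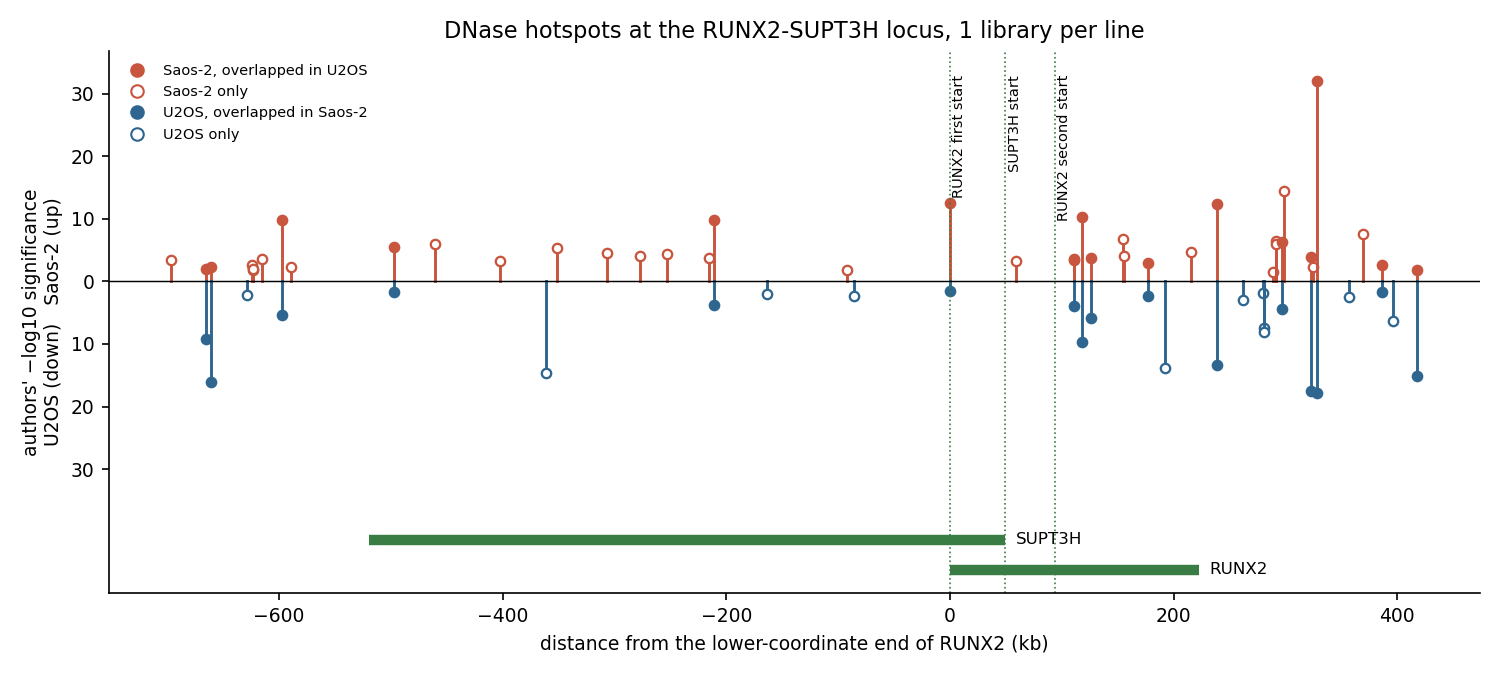
Hotspots of the RUNX2-SUPT3H locus by distance in kb from the lower-coordinate end of RUNX2. The authors' unlabelled value, taken as −log10 significance, is drawn upward for Saos-2 and downward for U2OS, 1 library each. For a shared site the strongest hotspot of each line is drawn. Filled points overlap a hotspot of the other line, open points do not, green bars are gene spans and dotted lines are transcription starts, the first of RUNX2 being P1 and the second P2; P1 carries 12.5 in Saos-2 and 1.59 in U2OS, and neither the SUPT3H start nor P2 of RUNX2 has a hotspot.

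The RUNX2-SUPT3H locus spans 1142 kb and holds no other protein-coding gene. It contained 41 Saos-2 hotspots and 27 U2OS hotspots, which covered 11472 bp and 7424 bp. Joined where they overlapped, they made 52 sites: 16 shared ones, 25 seen by Saos-2 alone and 11 by U2OS alone. Of the Saos-2 hotspots, 61.0% had no U2OS overlap, compared with 41.9% over the whole list. The overlapped share was 39.0% (exact interval 24.2 to 55.5%), and the value for the whole list, 58.1%, lay above this interval. The list value stayed above the interval of the locus under all 4 other definitions of overlap or list, but once only barely. It was 44.1% against 19.5% for the stricter overlap and 56.5% against 22.2% for the top 50% of each list. For lists of equal length it was 53.1% against 31.7%. With hotspots closer than 150 bp merged, it was 59.5% against 42.1%, just above the upper limit of 59.2%. The intervals treat hotspots as independent, although some unshared Saos-2 hotspots adjoin each other. In the gene spans alone, without flanks, the share was 35.0% and its interval (15.4 to 59.2%) contained the list value of 58.1%. On chromosome 6 as a whole, 51.3% of Saos-2 hotspots were overlapped, a value inside the interval of the locus. Of the U2OS hotspots, 40.7% had no Saos-2 overlap, against 53.1% over the list, and the interval of the overlapped share (38.8 to 77.6%) contained the list value of 46.9%.

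Hotspot numbers at this locus had a log2 ratio, U2OS over Saos-2, of -0.60 (counting interval -1.36 to 0.13). It was 0.30 over all hotspots and -0.05 on chromosome 6. The ratio was negative under each alternative run, from -1.04 with lists of equal length to -0.36 with the top 50% of each list. Lists of equal length hold 51556 hotspots each, so the whole-list ratio of 0.30 is not the reference for -1.04. Taken alone, the SUPT3H window had 30 Saos-2 and 16 U2OS hotspots, a log2 ratio of -0.91, and 3.76% of 19382 protein-coding windows with hotspots in both lines had a lower ratio. For the RUNX2 window, with 23 and 20 hotspots, that share was 22.7%. Windows with more Saos-2 hotspots made up 30.4% of those of all protein-coding genes, and windows with more U2OS hotspots 61.1%. The SUPT3H and RUNX2 windows share sites and are not independent of each other.

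Saos-2 had more unshared sites than U2OS below and within both genes, but not above RUNX2. In the 200 kb below SUPT3H there were 6 Saos-2 sites without overlap and 1 such U2OS site, and in the part of SUPT3H below RUNX2 there were 8 and 3. The part of RUNX2 above SUPT3H held 5 and 1. The 200 kb above RUNX2 held equal numbers, with 6 shared sites and 6 unshared sites of each line. Over the whole lists, 41.9% of Saos-2 and 53.1% of U2OS hotspots had no overlap. The overlapped share of Saos-2 hotspots was 33.3% (7.5 to 70.1%) below SUPT3H and 27.3% (6.0 to 61.0%) in its part below RUNX2. In the part of RUNX2 above SUPT3H it was 44.4% (13.7 to 78.8%). Each interval contained the list value of 58.1%, so these counts do not set any stretch apart from the list. The stretches were compared after the sites had been seen, and their counts are small.

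The longest run of sites from a single line at this locus was 5 Saos-2 sites over 136 kb, chr6:44976910-45113047, with −log10 significances from 3.78 to 5.31. A shared site followed it at chr6:45116777-45117269, with 9.87 in Saos-2 and 3.78 in U2OS. The strongest U2OS hotspot within SUPT3H, chr6:44966722-44967094 at 14.6 and percentile 87.0 of its list, had no Saos-2 overlap. A further shared site at chr6:44831129-44831591 had 5.44 in Saos-2 and 1.68 in U2OS. The other U2OS sites inside SUPT3H, at chr6:45164566-45164650 and chr6:45242766-45242905, were weak, with 2.06 and 2.27. In all, 11 Saos-2 and 6 U2OS hotspots fell within SUPT3H, and 3 of its 14 sites were shared, RUNX2 P1 among them.

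Inside RUNX2 itself there were 11 sites, counting P1, of which only the Saos-2 hotspot reaches into the gene span. Besides P1, 4 sites between P2 and the upper end were shared. At chr6:45445754-45446172 the −log10 significance was 10.3 in Saos-2 and 9.72 in U2OS, at chr6:45454389-45454636 it was 3.71 and 5.87, at chr6:45439103-45439361 it was 3.54 and 3.87, and at chr6:45505019-45505255 it was 2.94 and 2.35. The libraries differed by less than 2-fold at each of these 4 sites, and by more than that at P1. Saos-2 had 5 further sites alone: chr6:45387288-45387482 (3.29), chr6:45438872-45439100 (3.48), chr6:45483033-45483394 (6.85), chr6:45483597-45483801 (4.04) and chr6:45543511-45543776 (4.74). The hotspot that U2OS alone had in RUNX2, chr6:45520364-45520787 at 13.8, lay 192 kb above the P1 start and at percentile 85.8 of the U2OS list. The strongest RUNX2 site of each line was thus a different one: P1 in Saos-2 and this intragenic site in U2OS.

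The strongest site of the locus was the same in both libraries and lay in the flank above RUNX2. The site at chr6:45655622-45656475, 328 kb above the P1 start, had a −log10 significance of 32.1 in Saos-2 (percentile 98.9) and 17.9 in U2OS (percentile 90.8). At chr6:45566876-45567251, inside the antisense RNA gene RUNX2-AS1, the values were 12.4 and 13.3. These sites were strong in both libraries, and neither lies at the end of an annotated gene.

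Other sites of this flank differed by line. A Saos-2 hotspot 1017 bp wide, chr6:45626049-45627065, had a −log10 significance of 14.5 and no U2OS overlap, and so did chr6:45697626-45697946 at 7.65. U2OS had a run of 4 sites alone over 19.2 kb, chr6:45590253-45609413, which included chr6:45609031-45609413 at 8.06. At chr6:45650582-45650931 U2OS had 17.6 and Saos-2 3.89, and at chr6:45746104-45746496 U2OS had 15.05 and Saos-2 1.78. The lower flank had a pair of the same kind, chr6:44662722-44663233 with 9.27 in U2OS and 1.91 in Saos-2, and chr6:44667186-44667636 with 16.2 and 2.26. Sites counted as shared therefore ranged from equal strength to a call near the threshold in 1 of the libraries.

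RUNX1 (gene 861, chr21:34787801-35049302) had nearly equal numbers in the libraries, 34 hotspots in Saos-2 and 31 in U2OS over its window of 662 kb. They formed 43 sites, with 21 shared, 12 of Saos-2 alone and 10 of U2OS alone. The overlapped share was 64.7% in Saos-2 (interval 46.5 to 80.3%) and 67.7% in U2OS (48.6 to 83.3%). For the whole lists these shares were 58.1% and 46.9%, and for chromosome 21 they were 43.5% and 49.6%. The U2OS list value and the Saos-2 chromosome value lay below the respective intervals. Under the stricter overlap the shares at the locus were 44.1% and 48.4%, against 44.1% and 35.9% for the lists, and with lists of equal length the U2OS share was 70.4% against 52.1%. Both U2OS intervals then contained the list value. With the top 50% of each list the Saos-2 share at the locus was 30.0% (11.9 to 54.3%), below the list value of 56.5%, so its direction against the list turned.

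The highest Saos-2 values lay inside RUNX1 and below it, toward CLIC6, a gene of the chloride channel family. At chr21:34836068-34836498, within RUNX1 and the antisense gene RUNX1-AS1, the −log10 significance was 18.0 in Saos-2 and 5.09 in U2OS, and at chr21:34807488-34807877 it was 15.8 and 8.29. A pair of neighbouring Saos-2 hotspots in RUNX1, chr21:34845762-34846047 at 10.3 and chr21:34846567-34846895 at 9.12, had no U2OS overlap. The strongest Saos-2 site without overlap in this window, chr21:34712747-34712992 at 14.9, lay in CLIC6. Near the end of RCAN1, a calcineurin regulator, chr21:34615158-34615524 had 18.7 in Saos-2 and 7.21 in U2OS.

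The highest U2OS value lay above RUNX1. The 200 kb beyond P1 held 10 Saos-2 and 14 U2OS hotspots, whereas the 200 kb below the gene held 8 and 5, all of the latter shared. At chr21:35217454-35218113 U2OS had a −log10 significance of 22.8 and Saos-2 5.91, and at chr21:35084934-35085281 they had 15.1 and 2.88. U2OS alone had chr21:35198008-35198437 at 8.64 and chr21:35136916-35137199 at 6.39. Inside the gene, between P1 and P2, chr21:34982948-34983435 was also higher in U2OS, at 13.2 against 6.39, while chr21:34986658-34987366 close by was higher in Saos-2, at 11.2 against 4.60. The strength of neighbouring RUNX1 sites thus differed in either direction within a few kb.

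RUNX3 (gene 864, chr1:24899511-24965138) was the locus with the fewest hotspots, 17 in Saos-2 and 24 in U2OS over 466 kb. Of its 30 sites, 9 were shared, 8 belonged to Saos-2 alone and 13 to U2OS alone. The overlapped shares of 52.9% (27.8 to 77.0%) in Saos-2 and 45.8% (25.6 to 67.2%) in U2OS had intervals that contained the list values. The log2 ratio of 0.50 (-0.46 to 1.49) became -0.09 with lists of equal length and 0 in the gene span alone or with the top 50% of each list.

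The strongest hotspot inside RUNX3 was not the same in the libraries. In Saos-2 a hotspot 925 bp wide within the gene, chr1:24914228-24915152, had a −log10 significance of 13.1 and no U2OS overlap. In U2OS the strongest hotspot inside the gene was chr1:24949305-24949593 at 9.29, where Saos-2 had 2.23. Just above P1, U2OS alone had a run of 5 sites over 51.0 kb, chr1:24966746-25017771, the highest at 6.99. Further above, both libraries had a strong hotspot within 1 kb of the microRNA gene MIR4425, at chr1:25022348-25023231, with 17.2 in Saos-2 and 22.9 in U2OS. A U2OS hotspot beyond it, chr1:25032064-25032562 at 12.7, had no Saos-2 overlap. CLIC4, the chloride channel family gene next to RUNX3, had a shared site at its lower end with 6.79 in Saos-2 and 9.67 in U2OS, and one inside the gene with 13.3 and 5.15.

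CBFB (gene 865, chr16:67029149-67101058) lies among 25 protein-coding genes in a window of 472 kb, and most sites there belong to the neighbours. The window held 30 Saos-2 and 35 U2OS hotspots in 41 sites, of which 24 were shared, 6 came from Saos-2 alone and 11 from U2OS alone. The overlapped share was 80.0% in Saos-2 (61.4 to 92.3%) and 68.6% in U2OS (50.7 to 83.1%), and both intervals lay above the list values of 58.1% and 46.9%. On chromosome 16 the shares were 63.4% and 46.0%. The U2OS interval lay above its chromosome value and the Saos-2 interval contained it. This did not hold under every definition: with lists of equal length the shares were 66.7% and 69.0%, against 53.1% and 52.1% for the lists, and under the stricter overlap 56.7% and 48.6%, against 44.1% and 35.9%, and each of these intervals contained the list value.

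Inside CBFB the strongest site was shared. At chr16:67055718-67056175, within the gene, the −log10 significance was 19.9 in Saos-2 and 9.64 in U2OS, and the Saos-2 hotspot chr16:67082971-67083186 at 4.28 had no overlap. None of the line-specific sites of the window reached 9: the highest was 4.28 in Saos-2 and 8.09 in U2OS, the latter in CES3, a carboxylesterase gene, at chr16:66971079-66971714. A site between genes, chr16:66926985-66927474, had 19.5 in Saos-2 and 2.94 in U2OS. The highest U2OS values, 21.1 at chr16:66873178-66873678 and 18.0 at chr16:67115641-67116012 in PHAF1, were met by Saos-2 values of 9.79 and 9.47.

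**Figure D2:**
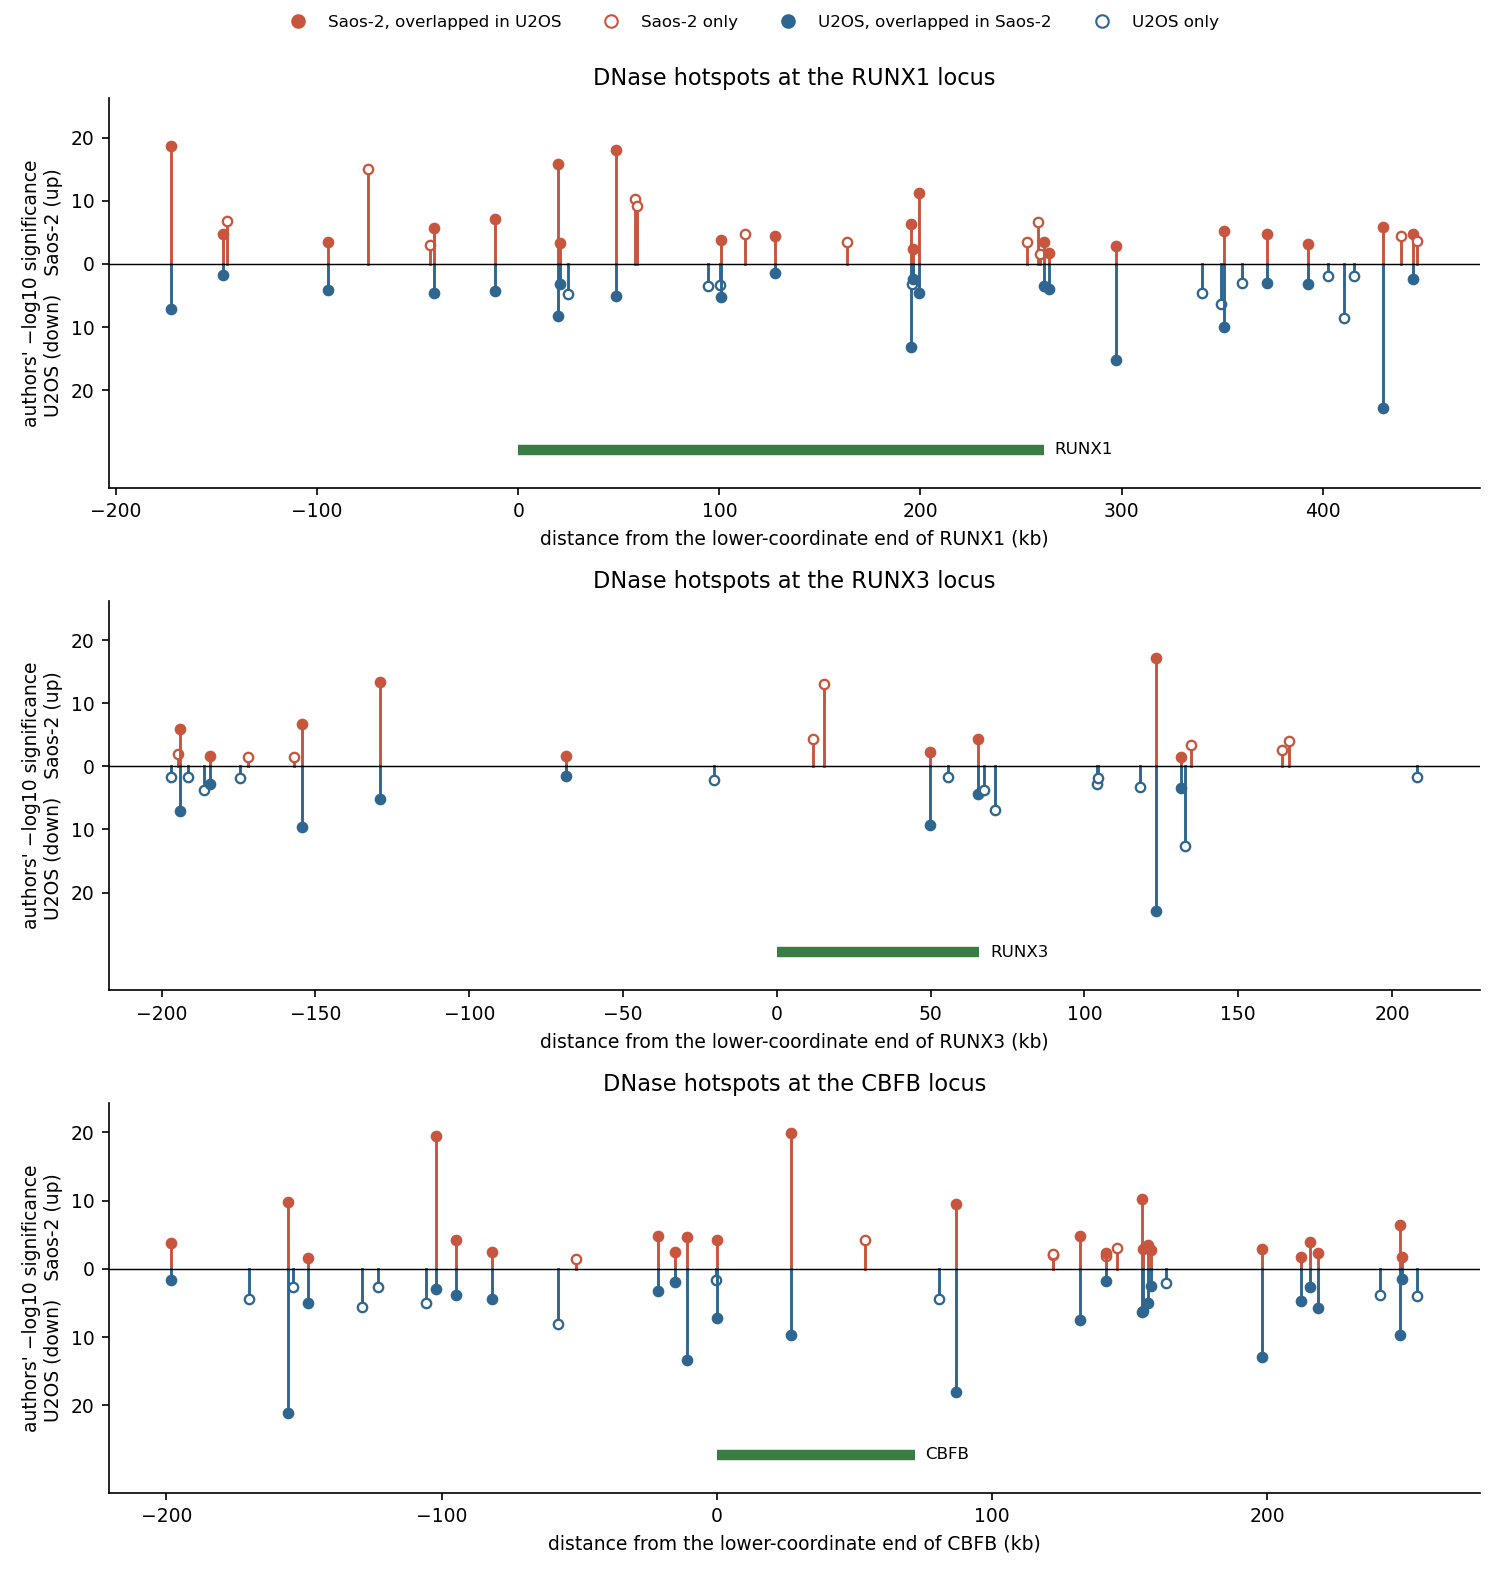
Hotspots of the RUNX1, RUNX3 and CBFB loci, by distance in kb from the lower-coordinate end of each gene, drawn as for RUNX2 (Saos-2 upward, U2OS downward, filled where the other line overlaps, 1 library per line). At RUNX1 the tallest Saos-2 values, 18.7 and 18.0, lie below and inside the gene and the tallest U2OS value, 22.8, above it; at CBFB the open points stay below 9 in both lines.

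Among the 5 gene spans, RUNX1 and RUNX3 had the highest hotspot density and SUPT3H the lowest in both libraries. In Saos-2 it was 6.50 hotspots per 100 kb in RUNX1, 6.09 in RUNX3, 4.49 in RUNX2, 2.78 in CBFB and 1.93 in SUPT3H. In U2OS it was 6.09 in RUNX3, 4.59 in RUNX1, 2.78 in CBFB, 2.24 in RUNX2 and 1.05 in SUPT3H. The RUNX2 count includes the Saos-2 hotspot at P1 but not that of U2OS, which ends below the gene start. RUNX3 and CBFB rest on 4 and 2 hotspots in each line, and counts of this size do not separate neighbours in the order. RUNX1, RUNX2 and SUPT3H had more hotspots in Saos-2, RUNX3 and CBFB equal numbers, and none had more in U2OS. Over all protein-coding gene spans, 19.2% had more in Saos-2 and 27.1% more in U2OS. The remaining spans had equal numbers and were not matched for length, so these shares are no like reference for long genes. RUNX2 and SUPT3H both count the Saos-2 hotspot at P1. On chromosome 21 as a whole the log2 ratio was -0.19 (-0.35 to -0.04), against -0.13 at the RUNX1 locus. Over the 4 loci together the log2 ratio was -0.06 (-0.44 to 0.32), and the interval contained the ratio of the whole lists, 0.30. The genes most like RUNX2 in hotspot density in both libraries and in the Jaccard index of covered bases, among 1424 genes with at least 10 hotspots over both lines, were PCCA, HECW2 and CAMTA1, at Euclidean distances of 0.186, 0.236 and 0.248. The distance was not scaled and for these genes rests almost wholly on the densities, and the likeness was measured over 2 libraries only.

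**Figure D3:**
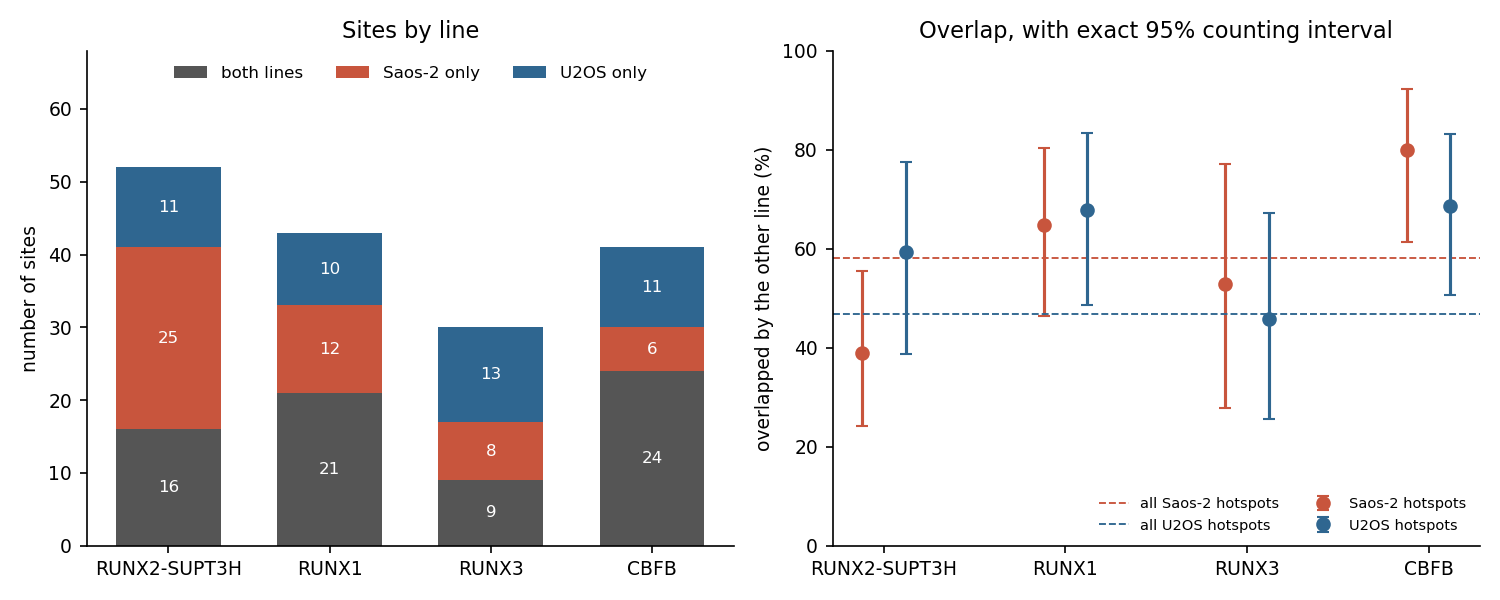
Left, sites per locus, split into shared sites and sites of either line alone. Right, percent of each line's hotspots overlapped by the other line, with exact 95% counting intervals. Dashed lines mark the value of the whole list, 58.1% (Saos-2) and 46.9% (U2OS). The Saos-2 interval of RUNX2-SUPT3H lies below its line. Both CBFB intervals and the U2OS interval of RUNX1 (48.6 to 83.3%) lie above theirs.

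At the shared sites the strength was compared as the highest −log10 significance of each line. Of 70 shared sites at the 4 loci, 36 (51.4%) were higher in U2OS, compared with 62.8% of 29044 shared sites in the genome. By locus, U2OS was higher at 7 of 16 sites of RUNX2-SUPT3H, 9 of 21 of RUNX1, 7 of 9 of RUNX3 and 13 of 24 of CBFB. A difference of at least 2-fold in the −log10 value was found at 12 sites in favour of Saos-2 (17.1%, against 12.1% in the genome) and at 17 in favour of U2OS (24.3%, against 29.9%). RUNX2 P1 had the largest ratio toward Saos-2 among the 70 sites. A larger ratio, toward U2OS, was found at chr6:45746104-45746496 in the same locus, with 15.05 in U2OS and 1.78 in Saos-2. The values come from libraries of unknown depth, and their levels are not on a common scale. By percentile within each list, 39 of the 70 sites ranked higher in Saos-2 and 31 in U2OS, so the majority among these sites turned. The percentile split was not computed for the shared sites of the genome, so whether it is particular to these loci is unknown.

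**Figure D4:**
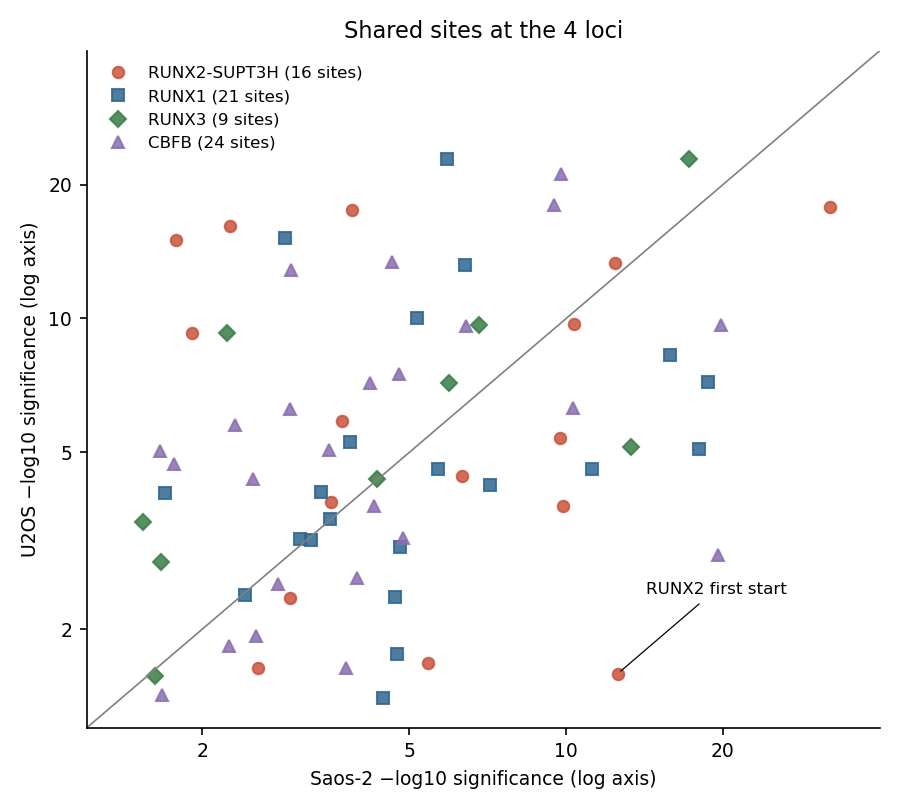
Authors' unlabelled value, taken as −log10 significance, of 70 shared sites, with Saos-2 on the x axis and U2OS on the y axis, both log axes. There is 1 point per site and 1 library per line, and the grey line marks equal values. RUNX2 P1 lies farthest below the line, at 12.5 in Saos-2 and 1.59 in U2OS. A site in the flank above RUNX2 lies farther from the line on the other side, at 1.78 in Saos-2 and 15.05 in U2OS.

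The genes that work with RUNX factors were then described by hotspot-covered bases within 10 kb of either gene end. Of 15 partners and regulators, 12 were covered in both lines, 1 by Saos-2 alone, 1 by U2OS alone and 1 in neither. Over all protein-coding genes these classes made up 63.7%, 5.46%, 13% and 17.9%. More bases were covered in U2OS at 11 of the 15 genes and in Saos-2 at 3, against 50.5% and 31.4% of all genes, and the median difference, U2OS minus Saos-2, was 60.0 bp against 6 bp over all genes. The genes covered in 1 line only were CBFA2T3 (262 bp, Saos-2), a corepressor of the family fused to RUNX1 in leukaemia, and TWIST1 (124 bp, U2OS), which holds back RUNX2 in early osteoblasts.

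Among the partners covered in both lines the corepressor genes TLE1 and TLE3 went in opposite directions. TLE1 had 1585 bp covered by Saos-2 hotspots and 546 bp by U2OS hotspots, and TLE3 had 763 bp and 1733 bp. YAP1, the Hippo pathway coactivator, had 403 bp (Saos-2) and 1923 bp (U2OS), and none of its hotspots was shared. SMURF1, a ubiquitin ligase that acts on RUNX2, had 221 bp and 986 bp. DLX5 and MSX2, homeobox genes of bone, differed little, with 1131 bp and 1191 bp for DLX5 and 709 bp and 846 bp for MSX2. WWTR1, which encodes the coactivator TAZ, had no hotspot in either line within 10 kb.

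Of 12 genes known as RUNX2 targets in osteoblasts and chondrocytes, 10 were covered in both lines, and SPP1 and PHEX in neither, against 63.7% and 17.9% of all genes. U2OS had more covered bases at 6 and Saos-2 at 4, against 50.5% and 31.4% of all genes, with a median difference of 13.5 bp against 6 bp. COL1A1, which encodes the main collagen chain of bone, had 601 bp (Saos-2) and 2280 bp (U2OS), and MMP13, a collagenase, had 197 bp and 528 bp. COL1A2, which encodes the other chain of type I collagen, went the opposite way with 391 bp and 199 bp. The bone matrix genes IBSP and MEPE adjoin each other and share a hotspot, with more bases in Saos-2 at both, 392 bp against 332 bp and 802 bp against 541 bp. The high coverage of the targets depended on the window. Within 1 kb of gene ends, 4 of the 12 were covered in Saos-2 and 3 in U2OS, below the 47.8% and 53.2% of all genes.

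**Figure D5:**
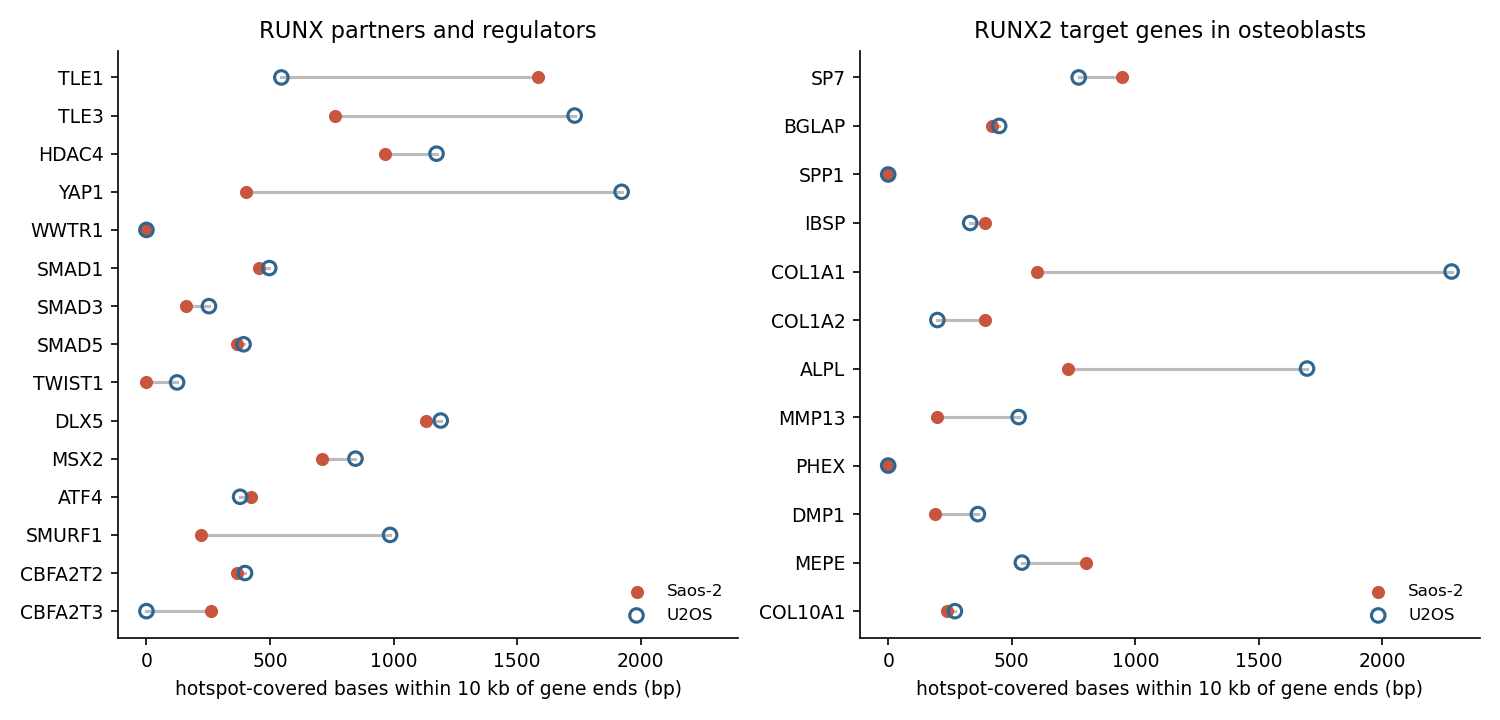
Hotspot-covered bases within 10 kb of either gene end for 15 RUNX partners and regulators (left) and 12 RUNX2 target genes (right), filled points for Saos-2 and rings for U2OS, 1 library per line. The widest gaps are at COL1A1 and YAP1, both higher in U2OS, and WWTR1, SPP1 and PHEX are at 0 in both.

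To describe the labelled cells, 8 markers of the osteoblast lineage were examined in the same windows, and all 8 were covered in both lines. This was no separate check, because all of them except SPARC were RUNX2 itself or genes of the target list. The U2OS coverage of RUNX2 was only the 118 bp hotspot at P1 of 1.59, which dropped out with lists of equal length. Markers of other cell types were covered too, 5 of 6 for blood, 2 of 4 for epithelium, 2 of 3 for endothelium and 2 of 3 for neurons in both lines. Only the blood marker PTPRC, the defining surface protein of leukocytes, had no hotspot in either line. The other 5 blood markers went the other way. Among them GATA1 had 1797 bp covered in Saos-2 and 1776 bp in U2OS, with highest −log10 values of 45.2 and 49.2. Coverage near gene ends, at 63.7% of all genes in both lines, therefore did not separate the lineage of the cells.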

How the data were processed

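DNase-seq of Saos-2 and U2OS, 1 library each, was available as 1 deposited list of hotspots per sample on hg38, at a false discovery rate of 0.05 per the file names. The lists have no header. A value that the authors deposited for each hotspot was taken as its −log10 significance, since the lowest value is 1.30 and the highest 100. No label names it so. The deposited score differs from 10 times this value by at most 0.5 and was not used further. Trimmomatic 0.38 and BWA 0.7.15 are named in the submitters' processing notes. The hotspot caller, read filters and depth are not given in the sources used here, and the lists belong to 1 sample each. A deeper library yields more hotspots and higher significance.

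Gene spans and promoter windows came from RefSeq tables (GRCh38.p14). Hotspots overlapping a gene span plus 200 kb were kept, and overlap of at least 1 bp counted as shared. Overlapping hotspots of both lines were joined into sites. Analyses used Python 3.11.15, pandas 2.3.3, numpy 2.4.6 and scipy 1.17.1, and the interval code was tested on simulated data. The genes, lists and tests were chosen with earlier results of these data known. Sites were named as those at member gene ends, inside RUNX2, among the 3 strongest shared or unshared per line and locus, or in the longest run of 1 line. Further sites and genes named were chosen after their values were seen. No genome sequence was used, so hotspots were not searched for motifs. An item of the gene lists is not reported here. No samples were left out, and the closing section gives the alternatives.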

Additional observations from a re-analysis of the deposited data

How the results depend on the processing

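No paired analysis was possible because each line has 1 library, and no replicate could be left out. Of 162 values recomputed, 108 stayed within 1.5-fold or within their counting interval, and 54 moved. The log2 ratios of RUNX3 and CBFB, whose intervals contain 0, changed sign: to -0.09 and -0.05 with lists of equal length, and at CBFB to -0.15 with flanks of 100 kb. For lists of equal length only the U2OS list was cut, which lowered the ratio at each locus. Values are given for RUNX2-SUPT3H, RUNX1, RUNX3 and CBFB in this order, Saos-2 before U2OS. When the overlap had to span 50% of each hotspot, the overlapped shares were 19.5 and 29.6%, 44.1 and 48.4%, 23.5 and 16.7%, and 56.7 and 48.6%. With the top 50% of each list, hotspots numbered 18 and 14, 20 and 12, 8 and 8, and 12 and 17. In that setting covered bases moved to 7291 bp (RUNX2-SUPT3H, Saos-2), 4162 bp (RUNX1, U2OS), 3138 bp (RUNX3, U2OS), 3934 bp and 5739 bp (CBFB), and overlapped shares to 22.2 and 28.6% (RUNX2-SUPT3H), 30% (RUNX1, Saos-2) and 47.1% (CBFB, U2OS). Flanks of 100 kb gave 9 and 15 hotspots at RUNX3 and 18 U2OS hotspots at CBFB, with 4872 bp (RUNX2-SUPT3H, U2OS), 3181 and 3621 bp (RUNX3) and 4802 and 4767 bp (CBFB). Gene spans alone held 20 and 11, 17 and 12, 4 and 4, and 2 and 2 hotspots, with 5467 and 2453 bp, 4719 and 3243 bp, 1604 and 780 bp, and 674 and 423 bp, and shares of 75% (RUNX3, U2OS) and of 50 and 100% (CBFB). Shorter windows and lists hold fewer hotspots by construction. Within 1 kb of gene ends, 4 and 3 of the 12 target genes were covered in Saos-2 and U2OS, against 10 and 10 within 10 kb. Over all protein-coding genes, 47.8% and 53.2% had a hotspot within 1 kb, and 63.7% were covered in both lines within 10 kb. The targets thus lay below all genes at 1 kb and above them at 10 kb. The log2 ratio stayed below 0 at RUNX2-SUPT3H (-1.04 to -0.36) and RUNX1 (-0.74 to -0.13) under the alternatives run. It ranged from -0.09 to 0.74 at RUNX3 and from -0.15 to 0.50 at CBFB. Numbers per locus are small, so differences below the counting intervals could not be resolved, and the cause of the moves by the stricter overlap was not tested.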
